A study of Rattus norvegicus with 8 samples.

Results

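The Wnt ligands described here are 10 of the secreted signalling proteins of the Wnt family that the arrays could read in rat retinal cells: Wnt2b, Wnt3, Wnt4, Wnt5a, Wnt5b, Wnt7a, Wnt7b, Wnt9a, Wnt10b and Wnt11. Their 11 probes, of 45598 gene probes on the array, were found by matching each probe's accession to the RefSeq transcripts of these symbols, among 16581 symbols matched in all. The genes were chosen because Wnt2b and others read higher with Klf4 in these same data. Their difference between the groups is therefore given as a description. Where the ligands are counted by the calls of a fit over the whole array, the counts describe them too and test nothing about them. In vitro electroporation put a control plasmid (4 arrays) or a Klf4 plasmid (4 arrays) into retinas of Lister hooded rats at postnatal day 0. Klf4 is a zinc-finger transcription factor. The explants were kept in culture for 39 hours, and the cells that had taken up DNA, marked by GFP in both groups, were sorted before RNA extraction. The promoter that drove Klf4 is not stated in the labels, and every array reads a bulk population of sorted cells. Nothing in the labels says that the arrays of a group are separate animals or cultures. The p-values below therefore cover only the spread between the samples at hand, which may be technical.

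Wnt ligands are lipid-modified by the acyltransferase Porcn, carried to the cell surface by Wls, and bind Frizzled receptors together with co-receptors such as Lrp5 and Lrp6. In the beta-catenin branch this spares beta-catenin from destruction, and it then acts with Tcf and Lef factors on target genes such as Axin2. Other ligands, Wnt5a and Wnt11 among them, are best known for signalling through Ror2 and the planar polarity proteins. In the developing eye, Wnt2b is known from the ciliary margin, the rim of the retina next to the future iris, and Wnt7a and Wnt7b guide vessel growth in the nervous system.

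RefSeq promoter sequences (assembly GRCr8, 250 bases before to 50 after the start) were matched for 7 of the 10 ligands and were searched for 3 motifs of the kind that KLF and related zinc-finger factors can bind: CACCC, CCNCNCCC and GGGCGG, on both strands. The first 2 can overlap each other, and so can the last 2. The 3 printed here belong to the ligands with the largest differences for which a sequence was matched, each 5′ to 3′ on the gene's strand, with matches to CACCC or CCNCNCCC in capitals.
Wnt2b, chr2:195156896-195157195, minus strand: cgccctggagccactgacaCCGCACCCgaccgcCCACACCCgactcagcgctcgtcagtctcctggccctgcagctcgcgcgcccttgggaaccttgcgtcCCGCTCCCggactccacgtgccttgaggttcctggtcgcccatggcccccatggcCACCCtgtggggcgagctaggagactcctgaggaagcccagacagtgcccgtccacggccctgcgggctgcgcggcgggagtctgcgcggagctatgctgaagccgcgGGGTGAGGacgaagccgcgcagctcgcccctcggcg
Wnt9a, chr10:44593441-44593740, plus strand: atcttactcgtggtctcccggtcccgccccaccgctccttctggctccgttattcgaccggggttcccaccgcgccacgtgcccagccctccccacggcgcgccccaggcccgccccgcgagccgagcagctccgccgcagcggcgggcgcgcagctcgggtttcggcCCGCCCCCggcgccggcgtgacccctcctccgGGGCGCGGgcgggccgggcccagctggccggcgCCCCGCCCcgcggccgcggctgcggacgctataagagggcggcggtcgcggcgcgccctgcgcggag
Wnt11, chr1:162549110-162549409, plus strand: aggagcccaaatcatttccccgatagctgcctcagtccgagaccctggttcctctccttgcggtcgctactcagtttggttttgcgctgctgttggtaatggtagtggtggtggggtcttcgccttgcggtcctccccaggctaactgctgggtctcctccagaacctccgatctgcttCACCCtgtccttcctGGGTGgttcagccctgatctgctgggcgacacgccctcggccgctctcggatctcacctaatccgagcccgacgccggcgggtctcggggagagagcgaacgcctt
The Wnt2b promoter held 4 matches to CACCC, 4 to CCNCNCCC and 1 to GGGCGG. The Wnt9a promoter held 0, 3 and 6 in the same order, and the Wnt11 promoter held 2, 0 and 0. Of the ligands that were not past the threshold below, Wnt7a held 1, 7 and 6 matches, Wnt4 held 1, 1 and 9, Wnt3 held 1, 2 and 2, and Wnt5a held 0 of each. All 3 motifs are rich in C or G. The ligand promoters held from 58.3% GC (Wnt5a) to 83.3% (Wnt4), beside a median of 51.7% over all promoters. Among 33469 promoters of the same 300 bases, 54.9% held CACCC, 46.3% held CCNCNCCC and 33.1% held GGGCGG. The median numbers of matches were 1, 0 and 0 in that order. Ligands with many and with few matches thus occurred among those that read higher with Klf4 and among those that did not.

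All signals below are on 1 scale, log2 intensity with each array's 75th percentile set to 0, so a value of -5 lies 5 doublings below that percentile. Each ligand was read by a single probe, apart from Wnt7a with 2. Levels of different ligands were not set against each other, but those of cell type markers were summed below. Between 72.1% and 86.5% of gene spots were well above background on an array, and no spot was saturated. Both arrays numbered 5 were in a second scan, and both numbered 4 failed the quality limits of the extraction software. The control arrays lay in slide columns 1 and 3 and the Klf4 arrays in columns 2 and 4, so slide column and plasmid cannot be told apart. Of the retinal markers, 8 of 8 of progenitors and 5 of 5 of photoreceptor precursors were well above background on all 8 arrays. The probe for Klf4 read -3.87, -2.45, -3.58 and -3.18 on control arrays 2, 3, 4 and 5, and -3.70, -1.74, -3.37 and -3.19 on the Klf4 arrays of the same numbers. The difference of 0.27 (SE 0.46, limma adjusted p = 0.916) was smaller than the spread between replicates. It is not stated whether the plasmid's insert holds the sequence of this probe, which therefore checks no label.

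With Klf4, 4 of the 10 ligands read far higher than in the controls: Wnt11, Wnt10b, Wnt9a and Wnt2b, by 5.04, 4.36, 4.22 and 3.1 on the log2 scale. The other 6 differed by -0.33 to 0.56. By the limma fit over all 29988 genes and features (Benjamini-Hochberg adjusted p under 0.05), these 4 ligands were past the threshold in the higher direction, beside 3.2% of all features tested. None was past it in the lower direction, beside 0.467% of all features. All Klf4 arrays lay above all control arrays for 5 ligands, the same 4 and Wnt4, beside 5.74% of all features. The reverse held for 0 ligands, beside 4.48% of all features. The median difference was 0.37 over the 10 ligands and -0.07 over all features tested. Because the genes were chosen on this contrast, nothing is read from these counts. Wnt2b, Wnt9a and Wnt11 also passed the filter on dim probes only through the Klf4 arrays. For these the filter itself selected better detection with Klf4, though not a difference of a given size. A higher signal in a bulk sample can come from more cells of a type or more RNA per cell, and these cannot be told apart here.

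**Figure D1:**
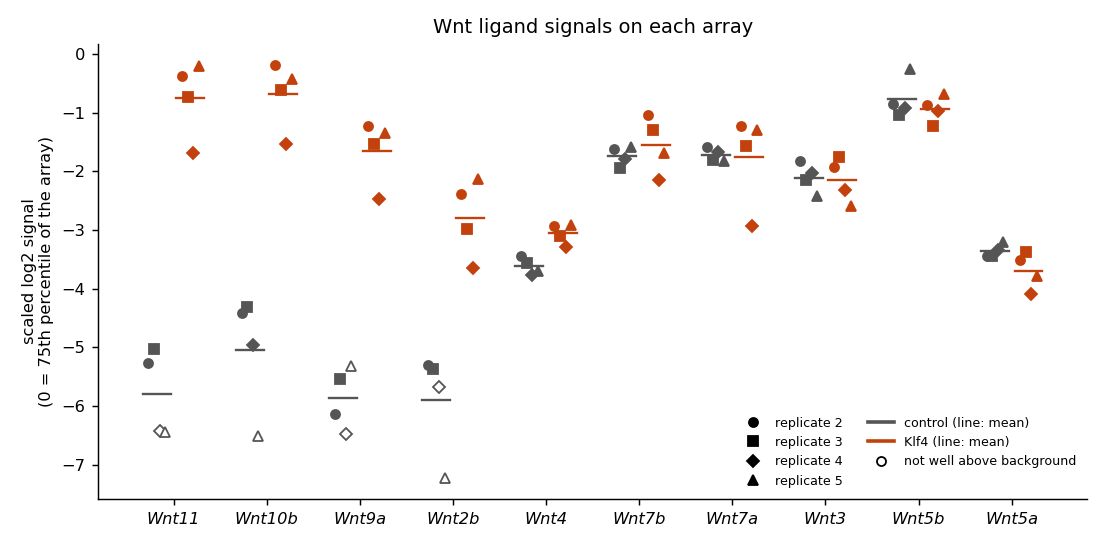
Scaled log2 signal (vertical axis) of the main probe of each Wnt ligand on the 4 control arrays (grey) and 4 Klf4 arrays (orange); lines are group means, shapes are replicate numbers, and open symbols were not well above background. For Wnt11, Wnt10b, Wnt9a and Wnt2b every Klf4 array lies above every control array, while for the ligands from Wnt7b to the right the groups overlap.

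Wnt2b, the ligand of the ciliary margin, read -5.31, -5.37, -5.67 and -7.23 on control arrays 2, 3, 4 and 5. On the Klf4 arrays it read -2.40, -2.99, -3.65 and -2.14. Every Klf4 array was above every control, with a gap of 1.65 between the highest control and the lowest Klf4 array. The mean went from -5.89 ± 0.91 to -2.79 ± 0.68 (SD, n = 4 each), a difference of 3.1 (SE 0.49), or 8.57-fold. The control level is the uncertain end of this comparison, since only control arrays 2 and 3 were well above background against all 4 Klf4 arrays. Control array 5 stood lowest, and without it the difference was 2.65.

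Wnt9a, known for its part in the formation of joints, read -6.13, -5.54, -6.48 and -5.32 in the controls and -1.23, -1.54, -2.48 and -1.35 with Klf4. The groups were 2.84 apart at their nearest arrays. The means were -5.87 ± 0.53 and -1.65 ± 0.57 (SD, n = 4 each), a difference of 4.22 (SE 0.34). It was well above background on control arrays 2 and 3 and on all 4 Klf4 arrays.

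Wnt10b, a ligand of the beta-catenin branch that restrains the formation of fat cells, read -4.41, -4.32, -4.95 and -6.52 in the controls. With Klf4 it read -0.18, -0.61, -1.54 and -0.43. All Klf4 arrays were above all controls, and control array 5 was again the lowest and the only array on which the probe was not well above background. The means were -5.05 ± 1.02 and -0.69 ± 0.59 (SD, n = 4 each), a difference of 4.36 (SE 0.50).

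Wnt11, which acts in cell movements of the early embryo and in branching of the kidney, showed the largest difference of the 10. It read -5.26, -5.03, -6.42 and -6.45 in the controls and -0.38, -0.73, -1.69 and -0.20 with Klf4. The lowest Klf4 array stood 3.34 above the highest control. The means were -5.79 ± 0.75 and -0.75 ± 0.67 (SD, n = 4 each), a difference of 5.04 (SE 0.43), and the probe was well above background on control arrays 2 and 3 and on all Klf4 arrays.

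Klf4 array 4 was the lowest Klf4 array for each of the 4 ligands. It was also the lowest for Wnt4, Wnt5a, Wnt7b and the main probe of Wnt7a, and it failed the quality limits. Taken between arrays with the same number, the difference of Wnt2b was 2.91, 2.38 and 2.01 for numbers 2, 3 and 4 and 5.09 for number 5. That of Wnt10b was 4.23, 3.71 and 3.42 for the first 3 numbers and 6.09 for number 5, and that of Wnt11 was 4.88, 4.30 and 4.72 against 6.24. That of Wnt9a was 4.90, 4.01 and 4.01 against 3.97. In the first scan alone the differences were 2.43 for Wnt2b, 4.31 for Wnt9a, 3.79 for Wnt10b and 4.64 for Wnt11, and the second scan holds a single array of each group, those numbered 5. With signals below an array's lowest well-measured signal raised to it, the differences were 2.61, 3.99, 4.08 and 4.56 in the same order.

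**Figure D2:**
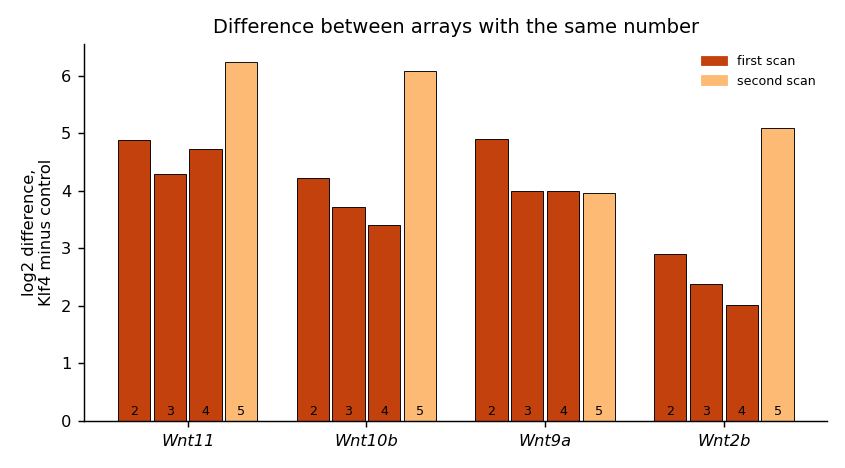
Log2 difference, Klf4 minus control, between arrays with the same number (2 to 5, printed at the foot of each bar) for the 4 ligands past the threshold; dark bars are the first scan and pale bars the second. All bars lie above 0, from 2.01 to 6.24, and number 5 is the highest for Wnt11, Wnt10b and Wnt2b but not for Wnt9a.

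Of the alternatives, another background correction moved these 4 differences furthest. With normexp on the median spot signals, which adds an offset of 50 and compresses dim signals, they were 1.38 for Wnt2b, 2.44 for Wnt9a, 2.97 for Wnt10b and 3.06 for Wnt11. The 4 ligands could not be tested where a probe had to be well above background on all 8 arrays, because none of the 4 was.

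Wnt4, needed for the kidney and the female reproductive tract, was the next ligand by size. It read -3.44, -3.57, -3.76 and -3.70 in the controls and -2.93, -3.10, -3.29 and -2.92 with Klf4. The groups did not overlap, but they were only 0.15 apart at their nearest arrays. The difference was 0.56 (SE 0.14), and it ranged from 0.33 to 0.63 over 23 alternatives. It was not past the threshold in the main fit (limma adjusted p = 0.08) but was in 4 of the alternatives.

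Wnt7b and the main probe of Wnt7a, the pair that acts on brain vessels, overlapped between the groups. Wnt7b read -1.62, -1.95, -1.79 and -1.58 in the controls and -1.04, -1.31, -2.16 and -1.69 with Klf4, a difference of 0.19 (SE 0.24). Klf4 arrays 2 and 3 were above all controls and Klf4 array 4 was below them. The main probe of Wnt7a read -1.58, -1.81, -1.67 and -1.82 in the controls and -1.22, -1.57, -2.93 and -1.29 with Klf4. Here 3 of the Klf4 arrays were above all controls and Klf4 array 4 was far below, which left a mean difference of -0.04 (SE 0.35). The second probe of Wnt7a was dim on every control array and well above background on 2 Klf4 arrays, too few to be kept. On this second probe every Klf4 array read above every control, 0.03 apart at the nearest, a difference of 1.25 (SE 0.39). Set against the bound on the dim controls, the Klf4 mean was 1.06-fold higher. That mean includes Klf4 arrays 3 and 4, which were not well above background, so it is poorly measured. The SD of Wnt7a in the Klf4 group, 0.80, compares with a median of 0.32 over all features.

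Wnt5a, the main ligand of Ror2, and its close relative Wnt5b were in the overlapping group too. Wnt5a read -3.45, -3.44, -3.35 and -3.20 in the controls and -3.52, -3.37, -4.09 and -3.79 with Klf4, a difference of -0.33 (SE 0.18). Klf4 array 3 lay within the range of the controls and the other 3 below it. Wnt5b read -0.85, -1.03, -0.92 and -0.27 in the controls and -0.88, -1.23, -0.98 and -0.69 with Klf4, a difference of -0.17 (SE 0.20). Wnt3, a beta-catenin ligand, read -1.83, -2.16, -2.03 and -2.42 against -1.92, -1.76, -2.33 and -2.60, a difference of -0.04 (SE 0.22). Wnt3, Wnt4, Wnt5a, Wnt5b, Wnt7b and the main probe of Wnt7a were well above background on all 8 arrays, so for these the comparison did not rest on dim signals.

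**Figure D3:**
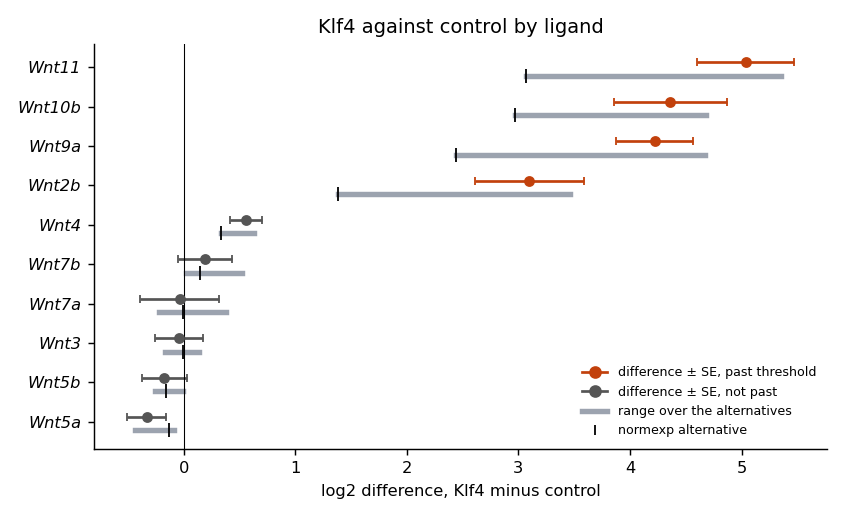
Log2 difference, Klf4 minus control (horizontal axis), for the 10 Wnt ligands with the SE of the limma fit; grey bars span the alternatives and black ticks mark the normexp correction. Wnt11, Wnt10b, Wnt9a and Wnt2b lie between 3.1 and 5.04, and the other 6 lie between -0.33 and 0.56.

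Several Wnt genes sit beside another Wnt gene in the genome, and the ligands that read higher were set beside their neighbours in the RefSeq gene order, a comparison chosen after the values were seen. Wnt10b lies next to Wnt1, whose log2 difference was -0.06 (SE 0.30), and on its other side next to Arf3 (0.23). Wnt9a lies next to Wnt3a, for which no probe was matched, and Prss38 (0.13). Wnt2b lies between St7l (-0.07) and Cttnbp2nl (0.07), and Wnt11 between Thap12 (-0.02) and Rpl27l2 (0.21). None of the 7 neighbours tested was past the threshold of the limma fit, and 0 had an unadjusted p under 0.05.

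Of 7 other Wnt ligands on the array, 5 were tested and 0 were past the threshold in either direction (limma, 0 with an unadjusted p under 0.05). Wnt1, a midbrain organiser ligand, differed by -0.06, Wnt6 by -0.37, Wnt8a by 0.21, Wnt9b by -0.09 and Wnt10a by -0.15. Wnt8b and Wnt16 were too dim to be tested. Their list and those of the other pathway roles came from general knowledge of the pathway, but were chosen with earlier results of these data known.

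Of 66 other pathway genes tested, of 90 listed, 5 were higher with Klf4 (7.58%, beside 3.2% of all features) and 1 was lower (1.52%, beside 0.467%). Their median difference was -0.01. The limma fit over all features gave these calls, and 10 of the 66 had an unadjusted p under 0.05. The share of all features with such a p was not counted. Nothing is therefore read from this count or from the like counts for other lists. Among 16 receptors and co-receptors, 3 rose and 0 were past the threshold in the lower direction. The receptor gene Fzd1, singled out after its values were seen, differed by -0.67 (SE 0.17, limma adjusted p = 0.0922) with every Klf4 array below every control, and was past the threshold in 4 of 23 alternatives. Ror2, the receptor tyrosine kinase for Wnt5a, read -4.32, -4.40, -4.22 and -4.80 in the controls and -1.96, -2.78, -2.73 and -1.52 with Klf4. All Klf4 arrays were above all controls, and the rise of 2.19 (SE 0.30, limma adjusted p = 0.00428) was past the threshold in all 23 alternatives.

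Fzd9, a Frizzled receptor, read -2.99, -2.43, -2.34 and -3.01 in the controls and -1.14, -1.25, -1.39 and -1.46 with Klf4. It rose by 1.38 (SE 0.19, limma adjusted p = 0.00478) with no overlap between the groups. Adgra2, the co-receptor through which Wnt7a and Wnt7b act on brain vessels, read -1.15, -1.02, -0.94 and -1.17 in the controls and -0.02, -0.32, -0.31 and -0.07 with Klf4. Its rise of 0.89 (SE 0.13, limma adjusted p = 0.00666) came beside differences of -0.04 for the main probe of Wnt7a and 0.19 for Wnt7b. Without scaling between arrays Fzd9 and Adgra2 were not past the threshold, with limma adjusted p of 0.239 and 1.0.

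Downstream of the receptors, 1 of 13 cytoplasmic and nuclear transducers rose. Tcf7l1, a Tcf factor that mostly represses beta-catenin targets, read -1.68, -1.55, -1.49 and -1.51 in the controls and 0.02, -0.30, -0.36 and 0.02 with Klf4. The rise was 1.41 (SE 0.14, limma adjusted p = 0.000849), lost only without scaling between arrays (0.122). Among the 7 beta-catenin targets tested 0 were past the limma threshold, and 0 had an unadjusted p under 0.05. Axin2, the target most used as a readout of the beta-catenin branch, read -4.11, -3.98, -3.58 and -4.10 in the controls and -4.38, -3.95, -4.95 and -4.29 with Klf4. The groups overlapped and the difference of -0.45 had an SE of 0.23 (limma adjusted p = 0.521). Lef1 was not well above background on any array and was not tested.

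Of 8 planar polarity genes, with differences between -0.30 and 0.99, 3 had an unadjusted p under 0.05 (limma). Only Vangl1, a membrane protein of this system, was past the threshold. It rose by 0.96 on its brighter probe (SE 0.17, limma adjusted p = 0.0146), while its other probe differed by -0.04. The call was lost in 6 of 23 alternatives, among them the mean over probes and leaving out control array 2 or 3 or Klf4 array 2 or 3, with adjusted p from 0.0504 to 0.683. Among 5 R-spondins and related receptors, Rspo2, a secreted amplifier of Wnt signalling, fell by 0.66 (SE 0.14, limma adjusted p = 0.037). On its brightest probe it read -2.15, -2.35, -2.21 and -2.13 in the controls and -2.64, -2.78, -3.0 and -3.07 with Klf4, with no overlap. On another kept probe the groups overlapped, with a difference of -0.69 (SE 0.57). A further kept probe, dim on every Klf4 array, differed by -2.10 (SE 0.43). Set against the bound on those dim arrays, its control mean was 1.47-fold higher. The call was lost in 14 of 23 alternatives, among them leaving out any 1 of the arrays other than Klf4 array 4, with adjusted p from 0.051 to 1.0.

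For the proteins that export ligands, Porcn differed by -0.08 (SE 0.18) and Wls by 0.14 (SE 0.74), neither past the limma threshold. Wls varied from -5.43 to -1.78 among the controls, so its difference was poorly measured. Among 10 inhibitors of ligands or co-receptors tested, most of them secreted, 0 were past the threshold and 1 had an unadjusted p under 0.05. Their differences lay between -0.48 and 0.36.

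**Figure D4:**
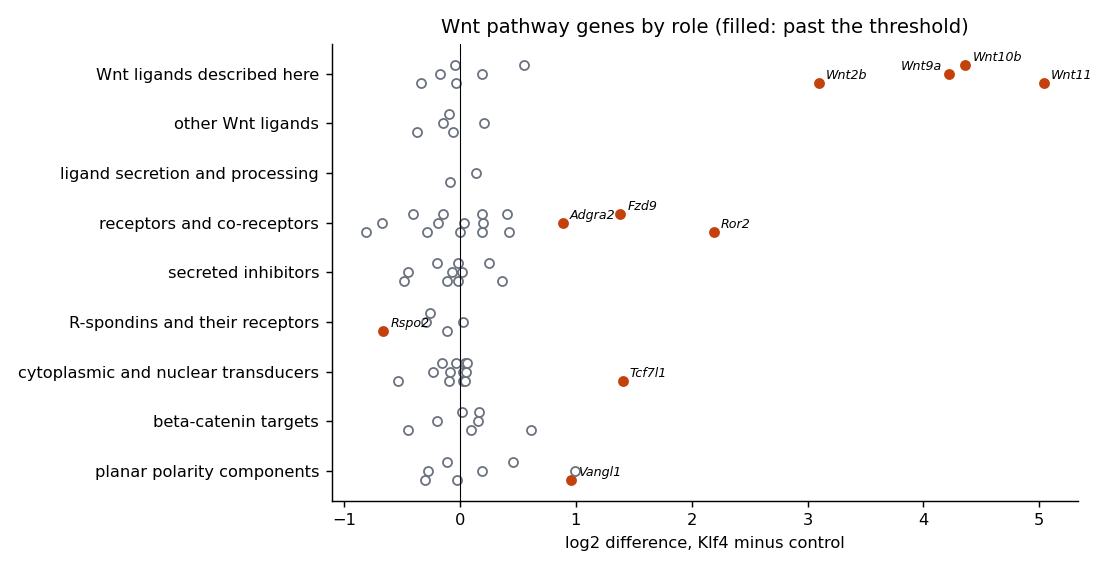
Log2 difference, Klf4 minus control (horizontal axis), of each tested gene of the Wnt pathway, in rows by role; filled orange points were past the limma threshold and are named, and the vertical offset within a row only separates points. Beside the 4 ligands, Ror2, Fzd9, Adgra2, Tcf7l1 and Vangl1 lie past it on the higher side and Rspo2 on the lower side.

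Markers of cell types that could be among the sorted cells were read on the same arrays. Of the ciliary margin markers, Wfdc1 was past the threshold at 3.19 (SE 0.45, limma adjusted p = 0.0078). Zic1, Mitf, Msx1 and Otx1 differed by 0.11, 0.12, 0.82 and 1.22 in that order, and none of these 4 was past it. Otx1 varied widely with Klf4 (SD 2.34). The summed level of 5 markers ranged from 5.00 to 5.92 in the controls and from 4.83 to 6.58 with Klf4. Signals were added before the log, so a summed level mostly follows its brightest marker. That was Mitf (mean 5.32 in the controls) for the ciliary margin and Kdr (6.68) for endothelium. Of 5 pigment epithelium markers on the array, 0 were well above background on all arrays and Tyr and Tyrp1 were so on none. Of 6 endothelial markers Tek (2.38) and Esam were past the threshold in the higher direction, Esam being dim on every control array, while Cdh5 and Kdr differed by -0.01 and 0.03, and the summed level ranged from 6.56 to 6.83 in the controls and from 6.46 to 7.28 with Klf4. Of 6 pericyte and fibroblast markers Cspg4 (1.62) and Col1a1 (1.36) rose, Pdgfrb differed by -0.86 (SE 0.44, limma adjusted p = 0.523), and Lum was on no array well above background. Col1a1 was the brightest of the 6, and their summed level ranged from 1.39 to 1.77 in the controls and from 2.65 to 3.02 with Klf4. Of the other lists, C1qb of microglia (1.04) and S100b of astrocytes (3.80, SE 0.77) rose, and Crx of photoreceptor precursors fell by 0.84. S100b was well above background on only 2 control arrays (control SD 1.78) and passed the filter on dim probes only through the Klf4 arrays. The other 5 microglial markers differed by -0.34 (Itgam) to 0.60 (Aif1), with Cx3cr1 at -0.23, and none was past the threshold. The other 3 astrocyte markers differed by -0.44 (Pdgfra), -0.40 (Gfap) and 0.20 (Aldh1l1), none past it either. The summed level of the microglial markers ranged from 2.36 to 2.93 in the controls and from 2.56 to 2.74 with Klf4, and that of the astrocyte markers from -1.47 to -0.54 and from -0.92 to -0.37. By limma 0 markers of progenitors, ganglion cells, amacrine cells, Muller glia and lens were past the threshold; 2 of progenitors and 1 of ganglion cells had an unadjusted p under 0.05. The part of these cells in the Wnt ligand values was not tested.

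By the rule set for Wnt2b, the 5 genes whose values over the 8 arrays were most like its own were Scn4b (r = 0.997), Trim29 (0.995), Mfap5 (0.992), Sprn (0.992) and Foxs1 (0.991). Among the ligands, r with Wnt2b was 0.990 for Wnt10b, 0.966 for Wnt11, 0.951 for Wnt4 and 0.897 for Wnt9a, and between -0.58 and 0.34 for the other 5. These points share the same 8 arrays and 2 groups, and 149 of 13486 symbols had r above 0.95, so the values are a description. Scn4b encodes a sodium channel subunit and Mfap5 a microfibril protein.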

How the data were processed

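RNA from sorted cells was labelled with Cy3 and read on 1-colour Agilent arrays with Feature Extraction 10.7.3.1, per the file headers. The deposited intensity values were background-subtracted by that software and not scaled between arrays; the deposited flags mark background, saturation and outliers. The authors' table of log2 values holds equal quantiles in each column, was made by a method not stated in the labels, and served as an alternative. Log2 signals of a probe's spots were averaged, without outlier spots, and scaled by subtracting the array's own 75th percentile. Probes well above background on at least 3 of 4 arrays of a group were kept, and the kept probe with the highest mean stood for a gene. limma 3.58.1 (R 4.3.3) was fitted without covariates over 29988 features, two-sided, and was tested on simulated data. Symbols came from RefSeq transcripts (GRCr8); the headers name another build, rn4, so no coordinates were taken from the array files, and those of the printed promoters are RefSeq's. For a probe dim on all arrays of a group, a bound compares the other group's mean with the dim arrays' lowest well-measured signal or the probe's own, whichever is higher.

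Members and lists were chosen with earlier results of these data known. The genes named were Klf4, all 10 ligands, every other Wnt ligand on the array, up to 4 genes per direction past the threshold in each pathway role, Porcn, Wls, Axin2 and Lef1, and the 5 genes most correlated with Wnt2b. Marker lists covered progenitors, photoreceptor precursors, ganglion, amacrine, Muller glial, ciliary margin, pigment epithelial, endothelial, pericyte and fibroblast, microglial, astrocyte and lens cells. Alternatives changed the background correction, scaling, filter, probe choice, blocks, array weights and arrays left out; normexp used median signals because no mean signal column was held. The number of arrays limits the precision.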

Additional observations from a re-analysis of the deposited data

Results flagged for a closer look

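Of 52 groups of 4 arrays examined among the Wnt ligands and named pathway genes, 3 held an array far from the others by Dixon's ratio; chance gives about 1 in 20. Wnt8a read -4.11 on Klf4 array 4, where the other Klf4 arrays lay between -3.37 and -3.24. Wnt9b read -2.32 on control array 5, against -1.75 to -1.64 on the other controls. Porcn read 2.2 on control array 5, against 2.73 to 2.78. None of the 10 ligands described in the report was among them.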

How the results depend on the processing

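The direction of Wnt2b, Wnt9a, Wnt10b, Wnt11 and Wnt4 was the same in every alternative that tested them, and Wnt3 and Wnt7a, both near 0, kept their sign in 17 of 23. The filter asking for a signal well above background on all arrays left 0 ligands past the threshold, because the 4 were not tested there. The other alternatives gave 4 to 6, Wnt4 being added in 4 of them and Wnt7b with array weights. With arrays left out in turn, ligands past the threshold numbered 4 to 5, other pathway genes higher 4 to 5 and lower 0 to 2, and all features higher 602 (without Klf4 array 2) to 1217 and lower 32 to 406. For lower features each array other than control array 5 moved the count by over 1.5 times: 32, 41 and 50 without control arrays 2, 3 and 4, and 38, 68, 406 and 56 without Klf4 arrays 2 to 5. Array weights gave 1846 higher and 1269 lower features, the first scan alone 628 and 47, and no scaling between arrays 526 and 2, with 1 pathway gene higher and 0 lower. Lower features numbered 93 with the array median, 70 without a filter and 255 with the scan as a block. Other pathway genes lower numbered 0 with the array median, no filter, the mean over probes, the replicate block, the arrays numbered 4 left out and the first scan alone, and 2 with normexp, the scan block and array weights. The share of called features that were higher was 87.3% in the main fit and 99.6% without scaling.

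Arrays with the same number correlated in their deviations at 0.36, 0.24, 0.06 and 0.55 for numbers 2 to 5. Numbers 2, 3 and 5 correlated best within their number, and number 4 better with another (0.21). Arrays of the same number lay in the same slide row and scan by the file headers, but the labels tie the numbers to nothing shared. The numbers were therefore not taken as pairs. With the replicate number as a block 842 features were higher, 101 lower, and 4 ligands were past the threshold. Wnt2b then stood nearer the threshold, at limma adjusted p = 0.0458 beside 0.00911 in the main fit. The call of Rspo2 was lost with this block (limma adjusted p = 0.0825). Normexp, no scaling and the raised floor were added after seeing the data. The cause of these changes was not tested. Precision is limited where control signals lie near background, as for Wnt2b, Wnt9a and Wnt11.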
